A study of Mus musculus with 6 samples.

Results

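The miRNAs described here are mmu-miR-126a-3p and mmu-miR-126a-5p (written below without the species prefix), the mature products of the 3′ and 5′ arms of the mouse Mir126a hairpin. They were chosen by name from the deposited expression table and are 2 of its 1034 distinct mature miRNAs. The table holds small RNA sequencing of nephron progenitor cells of CD1 mice, with 3 libraries from the embryonic stage E14.5 and 3 from newborn pups (P0). According to the labels, each library came from the kidneys of 1 litter, pooled, briefly digested to release cortical cells and selected on magnetic beads with an antibody to the integrin Itga8, and neither stage carried a genetic change or a treatment. The 3 libraries of a stage were separate litters, and the stages differed in nothing else that the labels name. Bead selection enriches and does not purify, so RNA of other kidney cells can be present at either stage.

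miR-126 lies in an intron of Egfl7, a gene for a secreted protein of the vessel wall, and is among the most abundant miRNAs of endothelial cells, where it acts on inhibitors of vascular growth factor signalling such as Spred1 and Pik3r2. It is also known from blood stem cells and megakaryocytes. Dicer cuts the hairpin into a duplex of its 2 arms, of which the 3p arm is usually the better retained, while the 5p arm has been studied in endothelial proliferation through its target Dlk1. Neither arm is known as a marker of nephron progenitors, and mRNA markers of endothelium are not measured by this assay.

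The hairpin, a mature product and the products of the hairpin opposite are shown first because the arms are told apart by sequence alone. In build GRCm38 the Mir126a hairpin (ENSMUSG00000065540.1) spans 73 bases at chr2:26591357-26591429 on the plus strand. Egfl7 spans chr2:26580014-26593120 on the same strand in GENCODE M21, and of the 9 Egfl7 transcripts that span the hairpin it is intronic in 8 and overlaps an exon in 1. miR-126a-5p (MIMAT0000137) is given in the deposited table at chr2:26591365-26591385, bases 9 to 29 of the hairpin, and miR-126a-3p (MIMAT0000138) at chr2:26591402-26591423, bases 46 to 67. The sequences are those of RefSeq (build GRCm38.p6), 5′ to 3′. In the mature sequences the capitals mark the seed, bases 2 to 8, and in the hairpin they mark miR-126a-3p.
miR-126a-3p: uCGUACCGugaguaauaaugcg
Mir126a hairpin: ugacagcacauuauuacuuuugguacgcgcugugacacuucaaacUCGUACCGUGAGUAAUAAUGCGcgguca
miR-126b-5p: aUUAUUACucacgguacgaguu
miR-126b-3p: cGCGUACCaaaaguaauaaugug
The last 2 are products of Mir126b, a hairpin on the minus strand at chr2:26591363-26591420. miR-126b-5p lies opposite miR-126a-3p over 19 bases, and miR-126b-3p lies opposite miR-126a-5p over 21 bases. Among the 885 miRNAs of the table with a RefSeq mature sequence, 0 others share the seed of miR-126a-3p.

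Levels are given in TPM, in this table the reads of a miRNA divided by its length and scaled to a library total of 1000000. Recovered reads ranged from 2649506 to 34934526 per library, and the smallest number of reads behind a value of either arm was 2893. P0 replicate 1 stood apart from the other P0 libraries. Over the 670 miRNAs that averaged 1 TPM or more, it correlated with the E14.5 libraries at a mean Pearson r of 0.948 in log2(TPM + 1) and with P0 replicates 2 and 3 at 0.908. Fitted stage differences of each miR-126a arm and of their ratio, and counts of listed miRNAs, are therefore given with and without it. P0 replicate 1 was set apart on these same data, so a smaller spread at P0 without it follows in part from that choice. Tests without it are a description. The labels name no sequencing batch or date.

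miR-126a-3p was an abundant miRNA of these preparations and was lower in TPM at P0 than at E14.5. It had 34206, 22741 and 22790 TPM in E14.5 replicates 1, 2 and 3. The P0 libraries had 6716, 5498 and 7927 TPM in the same order. All P0 values lay below all E14.5 values, and P0 replicate 1 lay between the other P0 libraries. It was the 4th, 11th and 8th most abundant miRNA of the E14.5 libraries and the 27th, 23rd and 19th of the P0 libraries. The mean was 26579 ± 6605 TPM at E14.5 and 6714 ± 1215 TPM at P0 (SD, n = 3), a 3.96-fold lower level. The log2 difference, P0 minus E14.5, was −1.97 (SE 0.42, limma adjusted p = 0.00611 over all 670 miRNAs tested). In bulk libraries such as these, fewer cells of a type and less RNA per cell cannot be told apart.

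miR-126a-5p, the rarer arm, fell further. It had 10714, 3868 and 5888 TPM in E14.5 replicates 1, 2 and 3. The P0 libraries had 1443, 137 and 189 TPM in the same order. The stages again did not overlap, but here P0 replicate 1 was 7.63 and 10.6 times as high as replicates 3 and 2. It ranked 26th, 42nd and 32nd at E14.5 and 63rd, 137th and 120th at P0. The mean was 6823 ± 3518 TPM at E14.5 and 589 ± 739 TPM at P0 (SD, n = 3), an 11.6-fold lower level. Its log2 difference was −4.22 (SE 0.79, limma adjusted p = 0.00435). Without P0 replicate 1 the log2 difference was −5.27 (SE 0.40, limma adjusted p = 3.7e-06), and that of miR-126a-3p was −1.98 (SE 0.29, limma adjusted p = 0.000166).

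**Figure D1:**
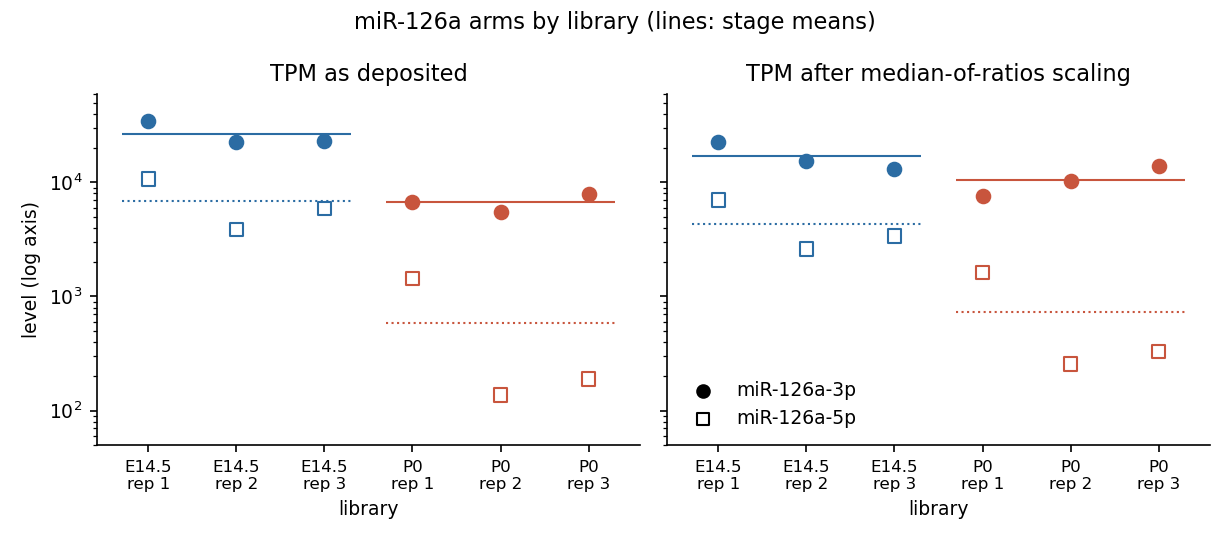
Level of miR-126a-3p (filled circles) and miR-126a-5p (open squares) in each library on a log axis, in deposited TPM (left) and after median-of-ratios scaling (right), with E14.5 in blue, P0 in red and stage means as lines (solid for 3p, dotted for 5p). In TPM both arms are lower in every P0 library, and the 5p arm is lowest in P0 replicates 2 and 3, at 137 and 189 TPM.

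These falls are read against a general shift. The same direction was called for 32.8% of the 670 miRNAs in TPM, and 46.4% had P0 values entirely below their E14.5 values, so a lower TPM with no overlap was common. The median log2 difference of all miRNAs tested was −1.20. Of the 670, 174 had a more negative difference than miR-126a-3p and 8 a more negative one than miR-126a-5p. The 8 included miR-200b-3p (−4.55) and miR-429-3p (−4.41), of the epithelial list below. Of the 60 miRNAs with a mean log2 level at or above that of miR-126a-5p, itself included, 0 had a more negative difference. That level is a mean over both stages, so a fall itself lowers it.

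**Figure D2:**
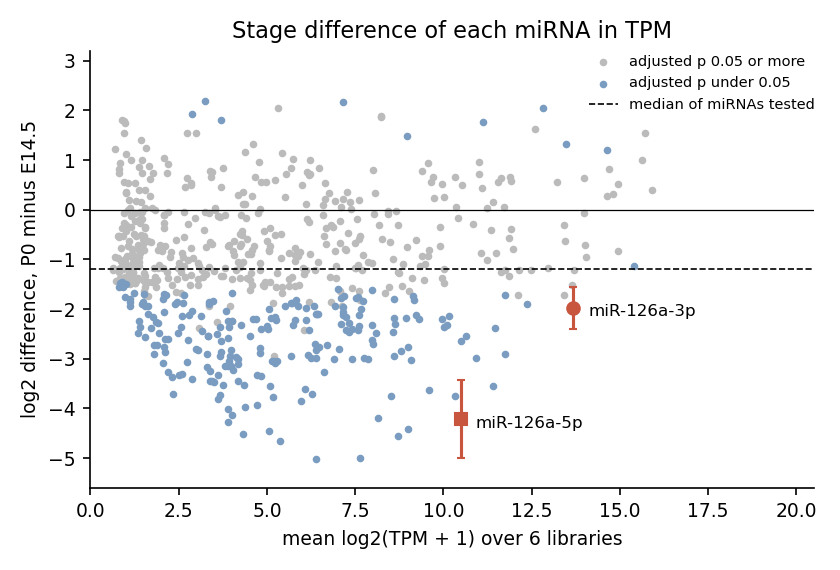
Log2 difference in TPM, P0 minus E14.5, of each of 670 miRNAs against its mean log2(TPM + 1), with called miRNAs in blue, the median of −1.20 as a dashed line and the miR-126a arms in red with their SE. miR-126a-3p lies at −1.97 and miR-126a-5p at −4.22, lower than every other miRNA tested of its mean level or above.

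Median-of-ratios scaling sets each library to the typical ratio of the miRNAs read in every library, which moved the median difference to −0.17. On this scale miR-126a-3p had 22346, 15286 and 13128 at E14.5 and 7562, 10263 and 13807 at P0 in replicates 1, 2 and 3. P0 replicate 3 was then above E14.5 replicate 3, and the stages overlapped. The log2 difference of miR-126a-3p was −0.69, with a 95% interval of −1.65 to 0.27 (limma adjusted p = 0.281), so its fall in TPM did not pass the test after scaling. miR-126a-5p had scaled values of 6999, 2600 and 3392 at E14.5 and 1624, 255 and 329 at P0, again with no overlap, as was so on this scale for 19.6% of the 670 miRNAs in the same direction. Its log2 difference was −2.94 (SE 0.70, limma adjusted p = 0.0333), and 5.22% of miRNAs were called lower on this scale. This call was lost when any library other than P0 replicate 1 was left out, with adjusted p up to 0.175.

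Without P0 replicate 1 the scaled difference of miR-126a-5p was −3.76 (SE 0.41, limma adjusted p = 0.00028) and that of miR-126a-3p −0.47 (limma adjusted p = 0.224). In that comparison 53.4% of miRNAs were called lower in TPM and 26.4% after scaling. In the authors' deposited table the log2 fold change was −2.99 with a standard error of 0.73 and an adjusted p-value of 0.00128 for miR-126a-5p. For miR-126a-3p the authors' deposited table gave −0.57 with a standard error of 0.61 and an adjusted p-value of 0.535. It called 5.32% of the 1034 miRNAs lower. The sign of the authors' fold change was read as P0 over E14.5 because it matched the scaled difference in all 107 miRNAs called there and tested here.

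The ratio of the arms does not depend on how a library is scaled, since both arms are read from the same library. The 3p to 5p ratio in TPM was 3.19, 5.88 and 3.87 in E14.5 replicates 1, 2 and 3. It was 4.66, 40.2 and 41.9 in P0 replicates 1, 2 and 3. P0 replicate 1 lay within the E14.5 range, whereas the other P0 libraries were both far above it.

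As a share of the reads of both arms, the 5p arm took 23.0%, 13.9% and 19.7% at E14.5 and 17.0%, 2.31% and 2.22% at P0. At E14.5 the 3p arm took 77.0% of them in replicate 1 (Wilson 95% interval 76.8 to 77.3), 86.1% in replicate 2 (86.0 to 86.1) and 80.3% in replicate 3 (80.0 to 80.5). At P0 it took 83.0% in replicate 1 (82.9 to 83.2), 97.7% in replicate 2 (97.6 to 97.8) and 97.8% in replicate 3 (97.7 to 97.8). These intervals are far narrower than the gap between P0 replicate 1 and the other P0 libraries, and they cover counting error only. The difference between stages, from 81.1% ± 4.58 to 92.8% ± 8.50 (SD, n = 3), gave p = 0.2 in an exact two-sided permutation test, in which 3 libraries against 3 cannot go below 0.1.

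**Figure D3:**
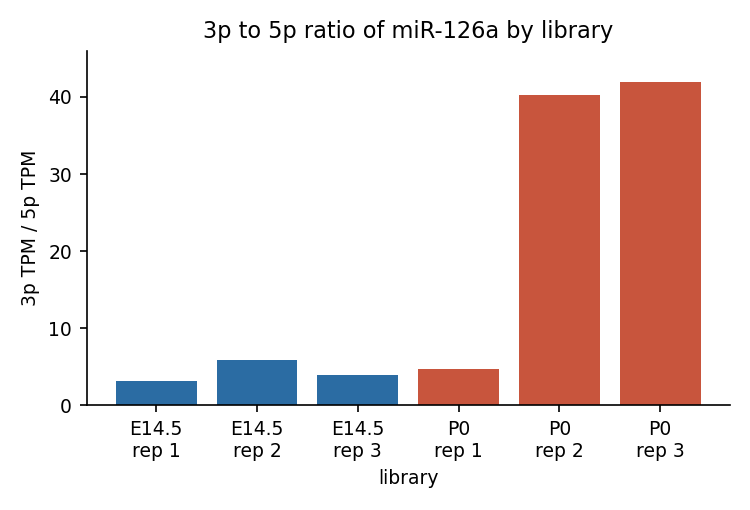
Ratio of miR-126a-3p to miR-126a-5p in TPM in each library, E14.5 in blue and P0 in red. The ratio is between 3.19 and 5.88 at E14.5, 4.66 in P0 replicate 1, and 40.2 and 41.9 in P0 replicates 2 and 3.

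The change of the ratio was tested with limma across the 119 hairpins whose arms both had a mean of at least 10 TPM. For miR-126a the log2 ratio was higher at P0 by 2.25 (SE 0.89), with a 95% interval of 0.08 to 4.42. This difference did not pass the threshold (limma unadjusted p = 0.0445, adjusted p = 0.135). Of the 119 hairpins, 0% were called, and 43 had an unadjusted p under 0.05. A larger positive difference was measured for 4 hairpins, and in either direction miR-126a ranked 19th by size of change.

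Without P0 replicate 1 the log2 ratio of miR-126a rose by 3.29 (SE 0.29, 95% interval 2.58 to 4.00, limma adjusted p = 0.000588). In that fit 29.4% of hairpins were called higher, and miR-126a had the 3rd largest rise and the 14th largest change in either direction. P0 replicate 1 was set apart on these same data, so the p-value without it is a description. The ratio of P0 replicate 1 alone was 0.16 above the E14.5 mean on the log2 scale, against 3.29 for the mean of P0 replicates 2 and 3. In 79 of the 119 hairpins (66.4%) the ratio of P0 replicate 1 was closer to the E14.5 mean than that of the other P0 libraries, by any amount. A gap like that of miR-126a, with an absolute log2 change under 1 in P0 replicate 1 and of at least 3 in the mean of the others, was found in 10 of the 119, itself included. The higher ratio was thus seen in 2 of the 3 P0 libraries.

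**Figure D4:**
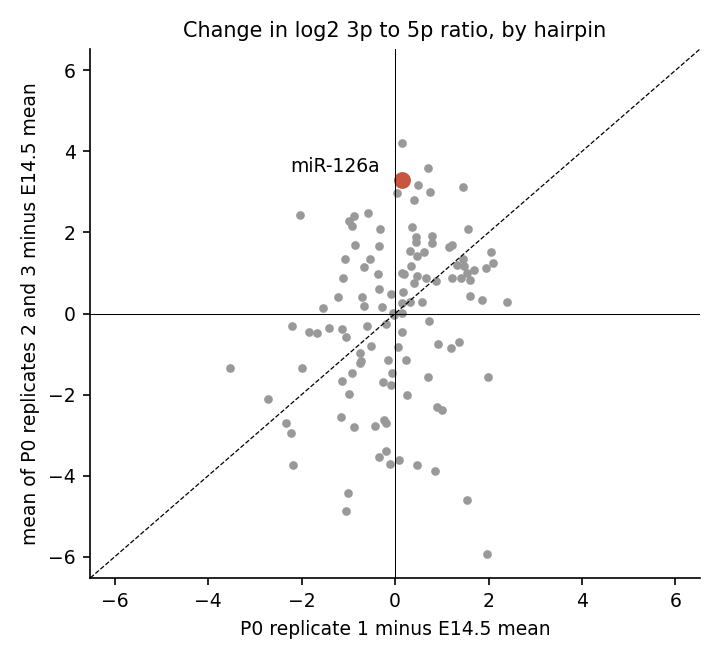
Change of the log2 3p to 5p ratio from the E14.5 mean for 119 hairpins, in P0 replicate 1 (horizontal) and in the mean of P0 replicates 2 and 3 (vertical), with miR-126a in red and equality as a dashed line. miR-126a lies at 0.16 and 3.29, and points spread more widely on the vertical axis than on the horizontal one.

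Base composition moved with the stage difference in these libraries. The GC content of miR-126a-3p is 45.5% and that of miR-126a-5p 38.1%. Across 666 miRNAs of the same libraries the Spearman correlation of the TPM difference with GC content was 0.400, with lower values at P0 for AU-rich miRNAs. Across the 119 hairpins, the change in arm ratio correlated with the difference in GC content between the arms at 0.315. After removal of a quadratic trend with GC content from each library, the log2 difference was −2.49 for miR-126a-5p (SE 0.58, limma adjusted p = 0.0260) and −0.62 for miR-126a-3p (SE 0.44, limma adjusted p = 0.360). The log2 ratio difference was then 1.87 (SE 0.73, limma adjusted p = 0.140), against 2.25 before it. The correction also centres each library.

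**Figure D5:**
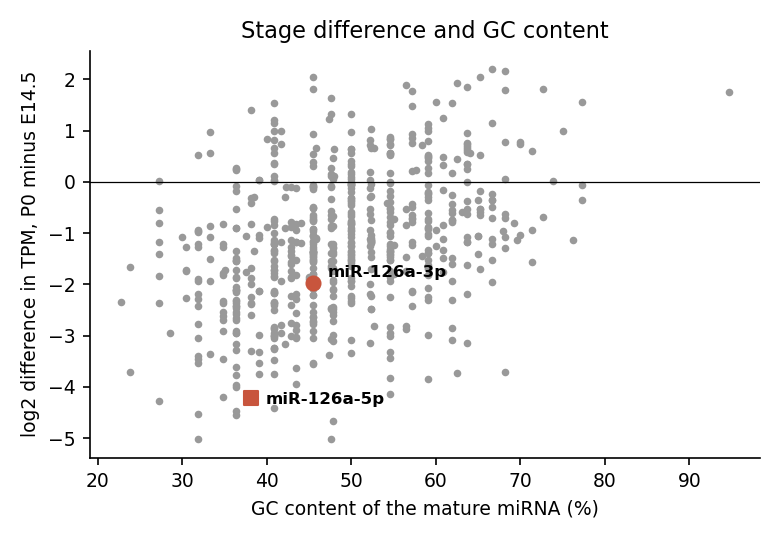
Log2 difference in TPM, P0 minus E14.5, against the GC content of the mature sequence for 666 miRNAs, with the miR-126a arms in red. Values are lower at low GC content (Spearman correlation 0.400), and miR-126a-5p, at 38.1% GC, lies near the lower edge of miRNAs of its composition.

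Reads from the opposite strand were rare. miR-126b-3p had 4, 11, 3, 38, 0 and 0 reads in E14.5 replicates 1, 2 and 3 and P0 replicates 1, 2 and 3. miR-126b-5p had 13 reads in E14.5 replicate 2, 1 read in P0 replicate 1 and 0 in the other libraries. Together the miR-126b arms took 70 reads, 0.00478% of the reads of both hairpins, against 1465638 for the miR-126a arms. Both had a mean under 1 TPM and were not tested, and whether reads were counted by strand is not given in the sources used here.

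The level of miR-126a-3p over the 6 libraries was compared with that of 223 other miRNAs averaging 100 TPM or more. The 5 most similar, by Pearson correlation of log2(TPM + 1), were miR-708-5p (0.988), miR-106a-5p (0.979), miR-204-5p (0.967), miR-181d-5p (0.965) and miR-451a (0.964). The other arm, miR-126a-5p, ranked 37th with a correlation of 0.896, and in the order by likeness to miR-126a-5p the 3p arm ranked 91st. These correlations share 6 libraries, 2 stages and the scaling to library totals, and are a description.

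Other miRNAs studied in endothelium and vessel growth were mostly lower at P0 in TPM, as were most miRNAs. Of 16 listed, most of which other cells also make, 15 had a negative TPM difference. In TPM 5 of the 16 (miR-139-5p, miR-221-3p, miR-222-3p, miR-146a-5p and miR-155-5p) were called lower, beside 32.8% of all miRNAs tested. When P0 replicate 1 was left out, 11 of the 16 were called lower, beside 53.4%. After median-of-ratios scaling 7 of the 16 differences were negative, and 0 were called by limma, beside 5.22% called lower and 5.67% higher, while 4 of the 16 had an unadjusted p under 0.05, beside 34% of all miRNAs. On that scale without P0 replicate 1, 4 were called lower and 3 higher, beside 26.4% and 22.2%. Their median log2 difference was −1.02 in TPM and 0.26 after scaling, beside −1.20 and −0.17 for all miRNAs tested. Without P0 replicate 1 the medians were −1.59 and −0.08, beside −1.42 and −0.29, so the sign of the list's scaled median turned.

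Of these 16, miR-139-5p had the most negative difference. It had 195, 91.9 and 159 TPM at E14.5 and 13.3, 14.2 and 27.9 TPM at P0 in replicates 1, 2 and 3, a log2 difference of −2.95 (SE 0.59, limma adjusted p = 0.00510). After scaling it was −1.69 (SE 0.57, limma adjusted p = 0.0761). Its other arm, miR-139-3p, had 23.1, 15.0 and 17.4 TPM at E14.5 and 2.24, 18.5 and 25.1 TPM at P0, so the stages overlapped.

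The arm ratio was tested for 5 hairpins of this list, and the differences were not all of one sign. The log2 3p to 5p ratio difference, P0 minus E14.5, was 2.25 for miR-139, 1.47 for miR-27b, 1.05 for miR-130a, 0.78 for miR-10a and −1.65 for miR-27a, none of them called (limma adjusted p from 0.0581 to 0.219). When P0 replicate 1 was left out, the ratios of miR-139 (3.00), miR-27b (1.63) and miR-10a (0.92) were called higher and that of miR-27a (−1.98) lower, with limma adjusted p from 0.0019 to 0.0334, and that of miR-130a (0.88) was not called. In that fit 29.4% of the 119 hairpins were called higher and 27.7% lower.

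miR-210-3p, a miRNA induced by low oxygen, was the one of the 16 with a positive TPM difference when all libraries were used, at 0.34 (SE 0.62, limma adjusted p = 0.659). It had 66.6, 128 and 101 TPM at E14.5 and 244, 68.8 and 105 TPM at P0, so P0 replicate 1 alone lay above the E14.5 range, and without it the difference was −0.16 (SE 0.41, limma adjusted p = 0.740).

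miRNAs of other cells that such a preparation could hold were listed beside these, and their part in the fall of miR-126a was not tested. Their counts are set against the same shares of all miRNAs called lower, 32.8% in TPM (53.4% without P0 replicate 1) and 5.22% after scaling (26.4% without it). An unadjusted limma p under 0.05, in either direction, was found for 49% of all miRNAs in TPM and 34% after scaling. The 9 miRNAs of stroma and vessel wall summed to between 102525 and 113432 TPM at E14.5 and between 37166 and 59144 TPM at P0. In TPM 5 of the 9 were called lower, and 9 of 9 without P0 replicate 1. After scaling 0 were called by limma (2 at an unadjusted p under 0.05), and 4 were called lower without P0 replicate 1. All 5 epithelial miRNAs, of the miR-200 family, were called lower in TPM and 3 of 5 after scaling, with the same counts without P0 replicate 1. They summed to 4122 to 23183 TPM at E14.5 and 500.2 to 1542 TPM at P0, with a 14.4-fold lower mean. The differences of miR-200b-3p and miR-429-3p were −3.27 and −3.13 after scaling, more negative than that of miR-126a-5p.

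The blood cell miRNAs were less uniform. The 5 erythroid miRNAs summed to 242 to 417 TPM at E14.5 and 128 to 194 TPM at P0, and 1 of them, miR-451a, was called lower in TPM and 0 higher. miR-486a-5p and miR-486a-3p of that list had positive log2 differences in TPM, 0.76 (SE 0.66, limma adjusted p = 0.363) and 1.54 (SE 0.58, limma adjusted p = 0.0567), and miR-486a-3p was listed at 0 in E14.5 replicates 1 and 3. Without P0 replicate 1, 2 of the 5 were called lower in TPM (miR-451a and miR-144-5p) and 2 higher (both miR-486a arms), where 7.76% of all miRNAs were called higher. After scaling 0 of the 5 were called by limma (3 at an unadjusted p under 0.05), and without P0 replicate 1 the same 4 were called in the same directions. The 4 leukocyte and platelet miRNAs summed to 632 to 1202 TPM at E14.5 and 454 to 629 TPM at P0. In TPM 0 of them were called (1 at an unadjusted limma p under 0.05), and 2 of 4, both miR-142a arms, were called lower without P0 replicate 1. After scaling 1, miR-223-3p, was called higher with and without P0 replicate 1, where 5.67% and 22.2% of all miRNAs were.

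The summed level of the miR-126a arms was 33402 ± 10029 TPM at E14.5 and 7303 ± 1445 TPM at P0 (SD, n = 3), 4.57-fold lower. After median-of-ratios scaling it was 21250 ± 7044 and 11280 ± 2561 (SD, n = 3), 1.88-fold lower. The stages did not overlap on either scale (exact two-sided permutation p = 0.1 on each, the smallest that 3 against 3 allow). Of all single miRNAs, 46.4% in TPM and 19.6% after scaling were also lower with no overlap. Of the lists, the stromal, epithelial, erythroid and leukocyte sums were lower at P0 in TPM with no overlap, the leukocyte sum by the narrow gap of 632 against 629 TPM. The sum of the 16 miRNAs studied in endothelium overlapped: it ranged from 54858 to 75152 TPM at E14.5, and P0 replicate 1 lay in that range at 72141 TPM, while the other P0 libraries lay below it at 31383 and 28225 TPM. In every library 63.3% to 70.8% of that sum came from miR-10a-5p and miR-27b-3p, which other cells also make, so it mostly describes that pair. The sum of the other 14 also overlapped, with 21035 TPM in P0 replicate 1 and 19650 to 25553 TPM at E14.5. The remaining lists share this limit. Their 2 most abundant miRNAs took 73.6% to 86.3% of the stromal sum and 83.0% to 92.9% of the leukocyte sum. For the erythroid and epithelial sums it was 65.4% to 89.3% and 44.4% to 70.9%. After scaling only the epithelial sum of these 5 lists was without overlap.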

How the data were processed

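Small RNA was sequenced in 6 libraries of mouse nephron progenitors, 3 per stage, from QIAseq miRNA libraries per the labels' protocols. The submitters' processing notes name featureCounts, DESeq2 1.26.0 and build mm10. Trimming, the aligner, the strand setting and the use of molecular tags are not given in the sources used here. The authors deposited TPM values for 1104 rows, together with a mean normalised signal per row, and a log2 fold change, a test score and a p-value of their comparison, per the file headers. Multiplied by the row's length (end minus start), 100% of the deposited TPM values were whole multiples (within 0.0001) of 1 step per library. The reads recovered in this way gave back the authors' mean signal with a largest relative difference of 4.75e-15. For the 52 miRNAs with several rows, the row with the most reads was used.

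The stage difference was fitted with limma 3.58.1 in R 4.3.3 on log2(TPM + 1), allowing the variance to follow the mean, for the 670 miRNAs averaging 1 TPM or more, which understates the change of low miRNAs. The arm ratio was fitted over 119 hairpins with at least 10 TPM in each arm. Benjamini-Hochberg adjustment was over each whole fit, with calls below 0.05. GC content came from GENCODE M21 for 98.6% of miRNAs. The sources give litters as replicates, so p-values measure the spread between litter pools. The fits were tested on simulated data. The members, lists and tests were chosen with earlier results of these data known. The miRNAs named beside the members are the miR-126b arms, the 5 most like miR-126a-3p, and some of the listed ones. Those listed ones passed a test, had an extreme value or were the other arm of such a miRNA. Others of them had a tested arm ratio or made up much of a summed level. Alternatives were other scalings, limma-voom on recovered reads, other filters and pseudocounts, summed rows, the GC correction, the replicate number as a block, and leaving out each library. The counts of listed miRNAs without P0 replicate 1, and the choice to report on that library in particular, came after seeing the data.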

Additional observations from a re-analysis of the deposited data

How the results depend on the processing

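The direction of both arms and of their ratio was the same under every alternative run. For miR-126a-3p the call was lost with median-of-ratios scaling (log2 difference −0.69), upper-quartile scaling (−0.80), limma-voom with median-of-ratios factors (−0.69) and the GC correction (−0.62), and leaving out 1 library gave −2.10 to −1.78 in TPM, all called, and −0.90 to −0.47 after scaling, none called. For miR-126a-5p it was lost with limma-voom and median-of-ratios factors (−2.88, limma adjusted p = 0.0514). Leaving out 1 library gave −5.27 to −3.58 for miR-126a-5p in TPM, all called, and −3.76 to −2.43 after scaling, called only without P0 replicate 1. With the GC correction and without P0 replicate 1, a setting chosen after seeing the data, the arms were at −0.38 and −3.14 and 256 miRNAs were called. The log2 ratio ranged from 1.71 to 3.29 when 1 library was left out and was called only without P0 replicate 1.

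The number of miRNAs called with limma was 229 in TPM, 9 of them higher and 220 lower, 73 with median-of-ratios scaling, 38 of them higher and 35 lower, 67 with upper-quartile scaling, 28 with limma-voom and median-of-ratios factors and 73 with the GC correction. Leaving out 1 library gave 66 (without E14.5 replicate 3) to 410 (without P0 replicate 1) in TPM and 0 to 326 after scaling; the 3 fits with 0, without E14.5 replicates 1 or 3 or P0 replicate 2, had 140, 136 and 143 at an unadjusted p under 0.05. Of the hairpins, 4 were called at 100 TPM, 4 with the GC correction, and 0 to 68 when 1 library was left out.

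Same-numbered libraries were different litters, so the number was not taken as a pairing. Their deviations nonetheless correlated at 0.193, 0.183 and 0.0423 for replicates 1, 2 and 3. Among pairs with unlike numbers, P0 replicate 3 correlated with E14.5 replicate 2 at 0.0770, and the rest lay between −0.182 and −0.0163. With the replicate block 247 miRNAs were called in TPM, 56 with median-of-ratios scaling (miR-126a-3p −0.69) and 80 with the GC correction (miR-126a-3p −0.62), and the ratio remained at 2.25 (limma adjusted p = 0.135). The smallest libraries, 2649506 and 5128723 reads, were both E14.5, but the fewest reads of either arm in any library were 2893, so counting error is small for both arms.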
